A study of Ceratopteris richardii with 9 samples.

Results

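The WOX13 clade of WUSCHEL-related homeobox (WOX) genes was represented by 3 transcripts, transcript39955, transcript134494 and transcript140100, of the 28952 transcripts in the count table of the young sporophyte of the fern Ceratopteris richardii. The members were taken by number from the WOX13 clade of the study's phylogeny, and all 3 were found in the table. The numbers come from a de novo assembly and carry no genome coordinates. The table does not pair them with gene names or sequences, so none are given. Plants of the cultivar Hn-n were dissected 45 days after fertilization into the root tip (RT), cut below the visible vascular strands, the differentiated root (DR, DT in the labels), which is the root without its tip, and the shoot (SH), which is the leaves and stem. Each of the 3 segments had 3 libraries, 9 in all, from RNA of pooled shoots, roots or root tips, and the replicates were independent by the study's methods. All segments came from the same untreated wild-type strain, so every comparison is between pools of different plant parts and not within single plants.

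WOX proteins are transcription factors with a plant-specific homeodomain. The family is divided into the WOX13, WOX9 and WUS clades, and the WOX13 clade is the oldest of them, with members in algae, bryophytes and all vascular plants. In the moss Physcomitrium patens, WOX13-like genes are needed when a cell of a cut leaf turns into a stem cell. In Arabidopsis the clade holds WOX10, WOX13 and WOX14, of which WOX14 acts in the proliferation of vascular precursor cells. The WUS clade holds the better known stem cell genes WUS and WOX5 of the seed plant meristems. The root of Ceratopteris grows from an apical cell and has no quiescent center. In the phylogeny of the study, fern members of the WOX13 clade fell into several possible subgroups, and the 3 Ceratopteris transcripts were separate members of the clade.

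Levels are given as CPM, estimated read counts relative to the library size, which was scaled by the TMM method for differences in composition. The libraries held between 20065742 and 27376654 counts, and 1 count was worth 0.0367 to 0.0511 CPM. The 10 most abundant transcripts took 10.4 to 11.9% of the counts in SH, against 3.74 to 5.69% in RT and 4.50 to 4.67% in DR, and the TMM factors ranged from 0.773 in SH replicate 1 to 1.25 in RT replicate 1. The identity of the tip samples was checked with 11 transcripts that the study had assigned to dividing tissue on these same libraries, 9 D-type cyclins, the retinoblastoma-related gene RBR2 and the GRAS gene SCL28. Their summed level was 349 to 428 CPM in RT, 30.8 to 56.3 CPM in DR and 212 to 219 CPM in SH. At an adjusted p of at most 0.05 (edgeR, as below), 11 of 11 were higher in RT than in DR and 7 of 11 higher in RT than in SH, and 10 of 11 were lower in DR than in SH. Of all transcripts, 29.9% were higher in RT than in DR and 29.9% higher in RT than in SH. Between DR and SH, 57.8% differed in either direction. Since the study chose the 11 markers on these libraries, this is no independent check. The DR and SH labels were not checked against markers. In bulk tissue, a lower level cannot be told apart from fewer cells that hold the transcript.

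For reads that fit several transcripts, kallisto gives a fraction to each, and 27 of the 27 member values were whole numbers within 1e-06. Over the whole table, 63.4% of transcripts were whole in every library. Transcript lengths are not given, so levels of different copies were not ranked against each other, and the comparisons below are of 1 copy between segments or of the ratio of 2 copies within a library.

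The 3 WOX13 clade transcripts had their highest mean in RT, and they were higher in RT than in SH in 3 of 3 cases at an adjusted p of at most 0.05, as were 29.9% of all transcripts. Against DR, only transcript39955 passed, where 29.9% of all transcripts were higher in RT. None of the 3 passed between DR and SH, where 57.8% of all transcripts did in either direction. The size of the root tip difference was largest for transcript39955, at 4.82-fold over DR, and smallest for transcript140100, at 1.33-fold over DR.

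**Figure D1:**
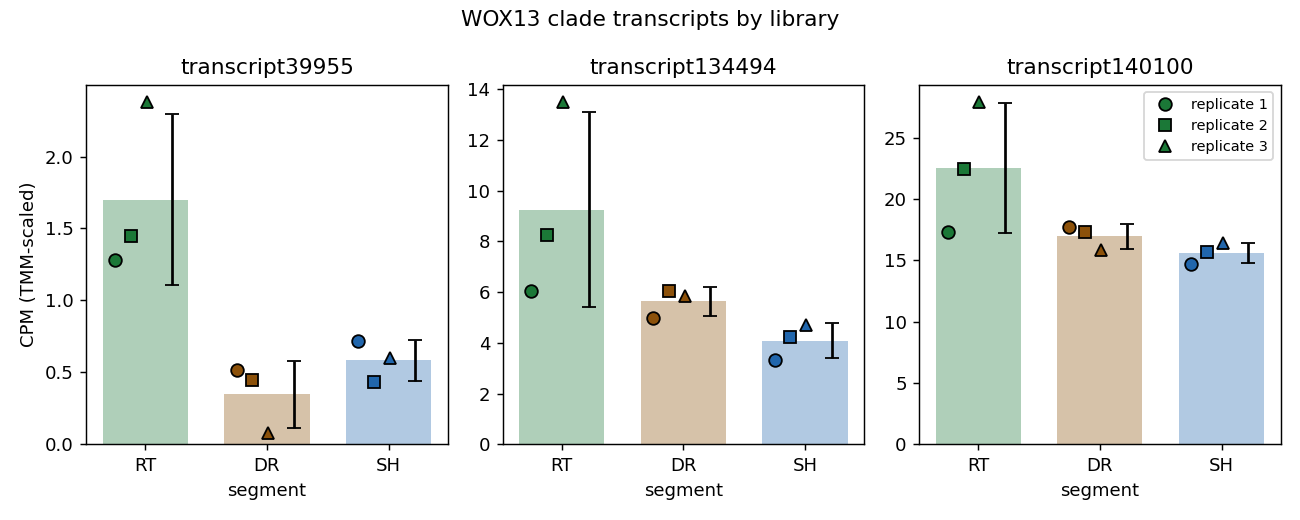
Level of each WOX13 clade transcript in TMM-scaled CPM (y axis, from 0) in RT, DR and SH. Bars are means, whiskers the SD of 3 libraries, and marker shapes the replicate number. The RT libraries of transcript39955 lie above the 6 others, and in all 3 transcripts RT replicate 3 is the highest library.

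transcript39955 was the copy with the lowest read support and the sharpest difference between segments. Its counts were 32, 37 and 64 in the RT libraries, 14, 12 and 2 in the DR libraries and 14, 10 and 14 in the SH libraries, each in replicate order. As CPM these were 1.28, 1.44 and 2.38 in RT, 0.514, 0.443 and 0.0807 in DR and 0.716, 0.430 and 0.602 in SH. All 3 RT libraries lay above the 6 others, as did those of 20.6% of all transcripts. The DR and SH libraries overlapped. DR replicate 3 was the lowest library, and its 2 counts have an exact 95% Poisson interval from 0.242 to 7.22 counts, which covers counting error only. This interval lies below the 12 and 14 counts of the other DR libraries. It overlaps the interval of the 12 counts, 6.20 to 21.0.

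On average transcript39955 was at 1.70 ± 0.593 CPM in RT, 0.346 ± 0.232 CPM in DR and 0.582 ± 0.144 CPM in SH (SD, n = 3 each). Its log2 fold change was 2.27 for RT over DR (standard error 0.55, 95% interval 1.03 to 3.51, adjusted p = 0.00584) and 1.54 for RT over SH (standard error 0.54, 95% interval 0.34 to 2.75, adjusted p = 0.0314). These and all further adjusted p-values of single transcripts are from the quasi-likelihood test of edgeR with Benjamini-Hochberg adjustment over the whole table. The difference to DR held in every alternative tried, at 1.82 to 2.66 and adjusted p of 0.000846 to 0.0233. The difference to SH was not past 0.05 without RT replicate 3 (adjusted p = 0.0994) or without SH replicate 1, 2 or 3 (adjusted p = 0.0552, 0.102 and 0.0789), over a range from 0.00796 to 0.102 in all alternatives. DR was not shown to differ from SH, with a log2 fold change of -0.72 (95% interval -2.02 to 0.57, adjusted p = 0.306). Leaving out DR replicate 3 changed that value to -0.27, and leaving out DR replicate 1 changed it to -1.11. The order of means was therefore RT, SH, DR, and the last step did not exceed the spread.

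transcript134494 had several times more counts. It was at 6.03, 8.23 and 13.5 CPM in the RT libraries, 4.99, 6.06 and 5.85 CPM in the DR libraries and 3.32, 4.21 and 4.68 CPM in the SH libraries. The RT libraries lay above all SH libraries. RT replicate 1 fell just below the highest DR library, so RT and DR overlapped. All 3 DR libraries lay above all SH libraries, which was the case for 32.1% of all transcripts.

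The means of transcript134494 were 9.25 ± 3.83 CPM in RT, 5.63 ± 0.562 CPM in DR and 4.07 ± 0.691 CPM in SH (SD, n = 3 each). The log2 fold change was 1.18 for RT over SH (standard error 0.30, 95% interval 0.51 to 1.85, adjusted p = 0.00672 in edgeR), and this call held in every alternative, at 0.83 to 1.56 and adjusted p of 0.000853 to 0.0296. For RT over DR it was 0.72 (standard error 0.29, 95% interval 0.06 to 1.37) and the adjusted p of 0.0594 missed the threshold. Without RT replicate 3 this value was 0.32 (adjusted p = 0.278), and without RT replicate 1 it was 0.95 (adjusted p = 0.0123). For DR over SH it was 0.47 (95% interval -0.20 to 1.13, adjusted p = 0.204). The means thus ran RT, DR, SH. In the TMM-scaled fit of all 9 libraries with segment as the only term, neither neighbouring step passed while the whole distance did.

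transcript140100 had the most counts of the 3 and the smallest relative differences. Its levels were 17.3, 22.5 and 27.9 CPM in the RT libraries, 17.7, 17.3 and 15.8 CPM in the DR libraries and 14.7, 15.7 and 16.4 CPM in the SH libraries. The lowest RT library lay among the DR libraries, whereas the RT libraries were all above the SH libraries. DR and SH overlapped.

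On average transcript140100 was at 22.6 ± 5.31 CPM in RT, 16.9 ± 0.997 CPM in DR and 15.6 ± 0.848 CPM in SH (SD, n = 3 each). For RT over SH the log2 fold change was 0.53 (standard error 0.18, 95% interval 0.13 to 0.93, adjusted p = 0.0274 in edgeR). This call was lost without RT replicate 2 (adjusted p = 0.0579), RT replicate 3 (0.0640), SH replicate 1 (0.0803), SH replicate 2 (0.0672) or SH replicate 3 (0.0555), over a range from 0.000549 to 0.0803 in all alternatives. For RT over DR the log2 fold change was 0.41 (95% interval 0.01 to 0.81, adjusted p = 0.0720), and it was 0.22 without RT replicate 3 (adjusted p = 0.263) and 0.57 without RT replicate 1 (adjusted p = 0.0104). The DR and SH means were close, with a log2 fold change of 0.12 (adjusted p = 0.591) whose 95% interval, -0.28 to 0.52, corresponds to a DR level from 0.823-fold to 1.43-fold of SH.

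**Figure D2:**
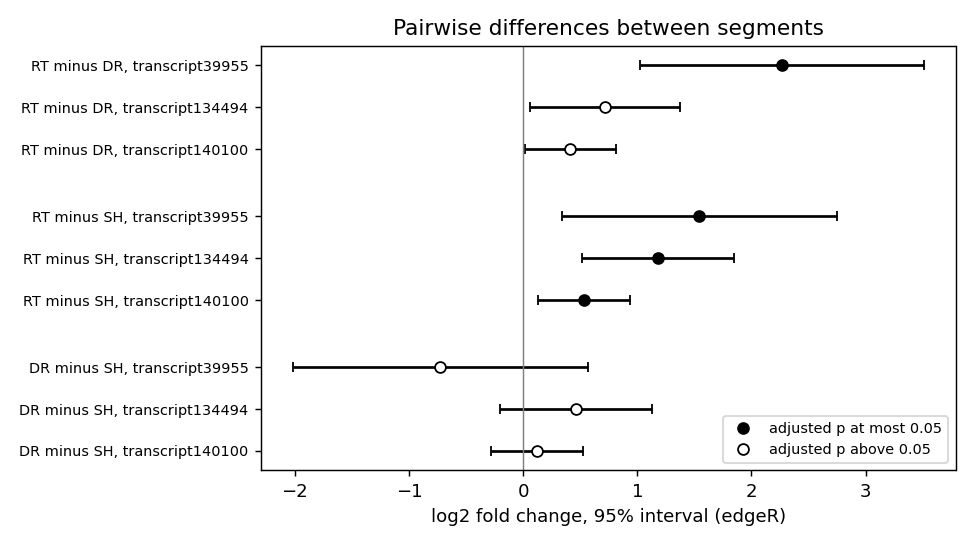
Log2 fold change (x axis) of each WOX13 clade transcript in the 3 pairwise comparisons, with 95% intervals from edgeR. Filled points have an adjusted p of at most 0.05. All 3 transcripts are filled for RT minus SH, transcript39955 alone for RT minus DR, and none for DR minus SH.

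These counts were read against the whole table, in which differences between segments were common. For RT over DR, 1 of 3 members was called higher, against 29.9% of all transcripts, and 57.8% of transcripts were called in either direction. For RT over SH, 3 of 3 members were called higher, against 29.9% of all transcripts and 58.1% in either direction. For DR over SH, 0 of 3 were called, against 57.8% of all transcripts in either direction, and 0 of 3 also had an unadjusted p under 0.05. The same 0 was found with DESeq2 and limma voom. With library size as the only scaling, which moved the median of all transcripts to 0.33, transcript134494 (0.87, adjusted p = 0.0208 in edgeR) and transcript140100 (0.53, adjusted p = 0.0139) passed for DR over SH. In an edgeR fit of DR and SH alone, transcript134494 passed (0.55, adjusted p = 0.0479). With such high background shares, the number of members called says little beyond the single transcripts. The RT and DR comparisons with SH share the SH libraries, and the comparisons of RT share the RT libraries, so the columns of values are not independent.

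The members' median log2 fold change was 0.72 for RT over DR, 1.18 for RT over SH and 0.12 for DR over SH, beside 0.07, 0.11 and -0.08 over all transcripts. The RT libraries did not overlap the DR libraries, and were higher, for 1 of 3 members, against 32.8% of all transcripts. They did not overlap the SH libraries for 3 of 3, against 33.5%. For its gene ontology and transcription factor family analyses, though not for its plots of single orthologs, the study also required a log2 fold change of 2. With that limit added, transcript39955 was the only member past both limits for RT over DR, as were 8.62% of all transcripts. Its value there was 1.93 without RT replicate 3 and 1.82 without DR replicate 3. For RT over SH 0 of 3 members were past both limits, against 9.32% of all transcripts.

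**Figure D3:**
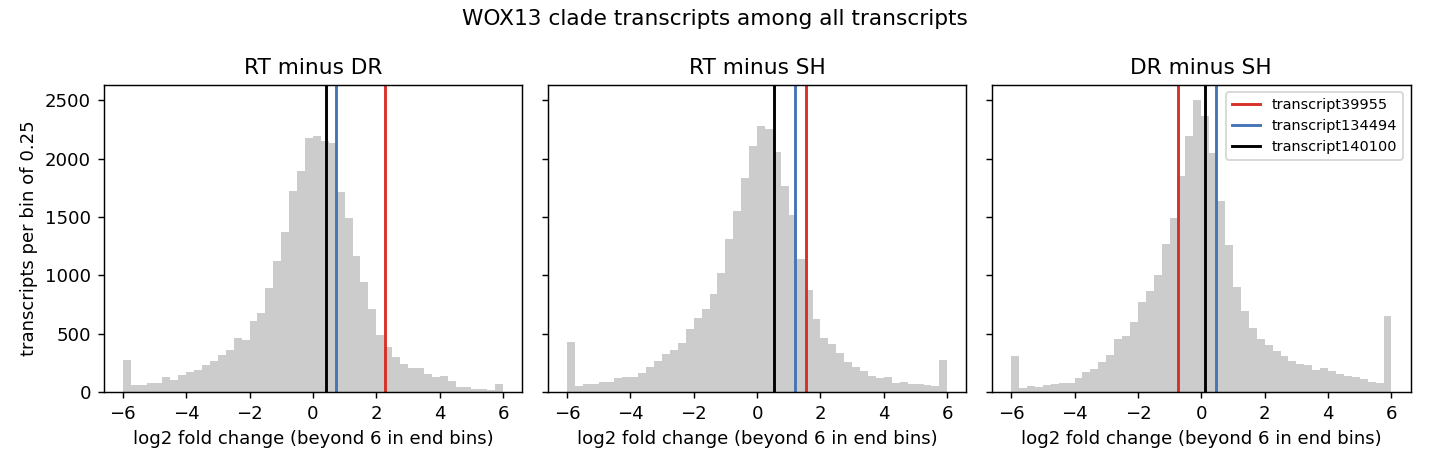
Distribution of the log2 fold change (x axis) over all 28952 transcripts (grey bars, transcripts per bin of 0.25 on the y axis, values beyond 6 in the end bins) for the 3 comparisons, with a line for each WOX13 clade transcript. transcript39955 stands at 2.27 for RT minus DR, and the lines for transcript140100, at 0.41, 0.53 and 0.12, run near the centre of each distribution.

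Tested over all segments at once, the 3 members passed with adjusted p of 0.00755 for transcript39955, 0.0119 for transcript134494 and 0.0419 for transcript140100 (edgeR, both contrasts jointly), as did 77.7% of all transcripts. The last of these is the least secure, since it was above 0.05 in 12 of 18 alternatives, among them the loss of any library except RT replicate 1. Against the mean of DR and SH, 3 of 3 members were called higher in RT, beside 30.3% of all transcripts. The study had shown the members after filtering on an adjusted p from these same libraries. That they passed here is therefore no independent result.

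The RT libraries differed by more than counting error for each member. The coefficient of variation in RT was 34.9% for transcript39955, 41.4% for transcript134494 and 23.5% for transcript140100, where counting error alone gives 15.0%, 6.43% and 4.13%. In DR and SH, transcript140100 varied by 5.89% and 5.43%, little more than the 4.73% and 5.39% that counting gives. RT replicate 3 was the highest and RT replicate 1 the lowest RT library for 3 of 3 members, an order shown by 22.2% of all transcripts. Over all segments, the biological coefficient of variation estimated by edgeR was 39.0% for transcript39955, 27.7% for transcript134494 and 18.4% for transcript140100, beside a median of 24.4% for all transcripts, so the last of the 3 varied less than the median transcript. The summed level of the dividing tissue markers had the same order, at 349, 404 and 428 CPM in RT replicates 1, 2 and 3. Most of the single markers did not share it, and the sum was weighted towards the most abundant ones. The most abundant, a D-type cyclin, was at 121, 149 and 160 CPM, whereas another D-type cyclin was at 8.63, 3.86 and 3.79 CPM. The part of the library order or of the marker levels in the root tip differences was not tested.

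**Figure D4:**
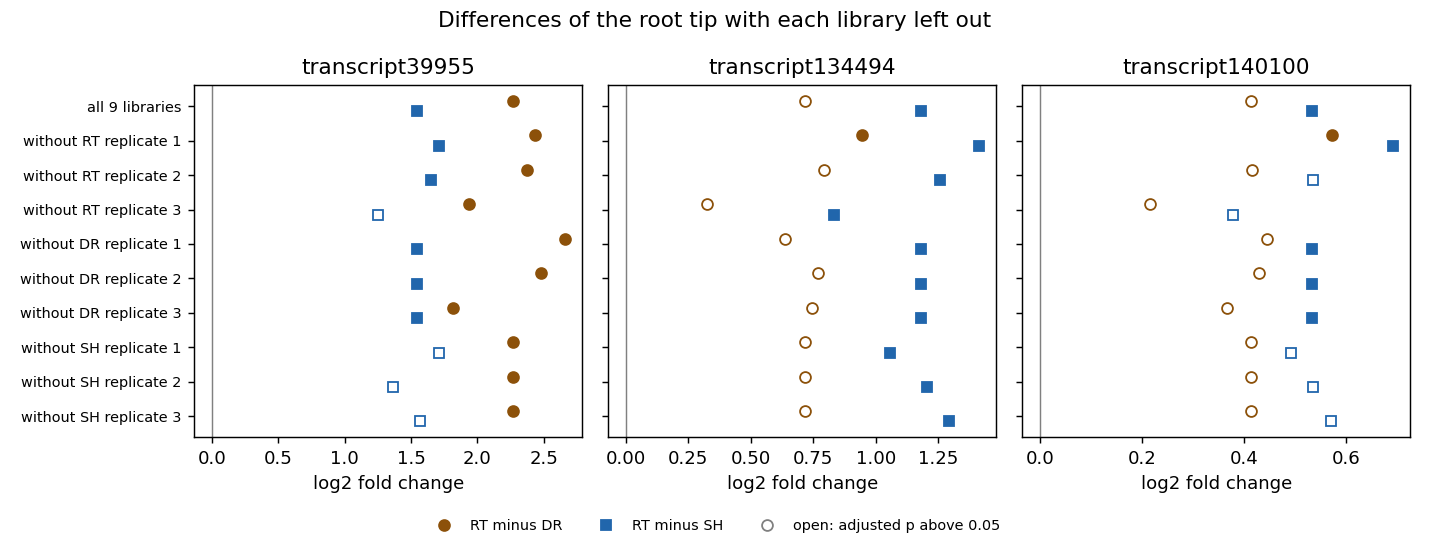
Log2 fold change (x axis) of RT over DR (circles) and RT over SH (squares) with all 9 libraries and with each library left out (rows). Open symbols have an adjusted p above 0.05. Without RT replicate 3, transcript134494 and transcript140100 are at 0.32 and 0.22 for RT over DR, the lowest of their rows.

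The relative levels of the 3 copies shifted between segments. Of the counts of the 3 together, transcript39955 held 5.04% ± 0.490 in RT, 1.48% ± 0.979 in DR and 2.90% ± 0.855 in SH (SD, n = 3 each). transcript134494 held 26.98% ± 3.37 in RT, 24.6% ± 2.78 in DR and 20.02% ± 2.04 in SH. transcript140100 held most of the counts in every library, 68.0% ± 3.67 in RT, 73.9% ± 2.05 in DR and 77.1% ± 1.42 in SH. These shares are of counts and not of molecules, since longer transcripts give more reads. The summed level of the 3 was 33.5 ± 9.66 CPM in RT, 22.9 ± 1.06 CPM in DR and 20.3 ± 1.47 CPM in SH, with the libraries between 24.6 and 43.8, 21.7 and 23.8, and 18.8 and 21.7 CPM.

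Differences between segments in the ratio of 2 copies do not depend on length or library scaling, and show whether the copies differ in their pattern over segments. An exact permutation test that ran through the 280 possible ways to divide the 9 libraries among the segments was used, one-sided for a between-segment sum of squares as large as that seen, for which the smallest possible p is 0.00357. The 3 ratios are tied to each other, as any of them follows from the other two.

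The log2 ratio of transcript39955 to transcript140100 was -3.74, -3.94 and -3.54 in the RT libraries, -5.06, -5.23 and -7.29 in the DR libraries and -4.31, -5.12 and -4.72 in the SH libraries. All RT libraries lay above the others, while DR and SH overlapped. The segments differed (exact permutation p = 0.00714, adjusted over the 3 ratios 0.0214). The mean difference was 2.12 for RT minus DR and 0.98 for RT minus SH, so the mean excess in the root tip was larger for transcript39955 than for transcript140100. The test was over the 3 segments and not of either pair. The DR mean includes replicate 3, at -7.29, which holds 2 counts of transcript39955. Without it the adjusted permutation p was 0.0429. The adjusted p was above 0.05 without RT replicate 2 (0.0714) or 3 (0.0964) and without SH replicate 1 (0.0536) or 3 (0.0643).

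The log2 ratio of transcript39955 to transcript134494 averaged -2.40 ± 0.158 in RT, -4.27 ± 1.40 in DR and -2.77 ± 0.541 in SH (SD, n = 3 each, exact permutation p = 0.0250, adjusted 0.0375). Every DR library was below every RT library, and RT and SH overlapped. The highest DR library and the lowest SH library both stood at -3.23, so DR and SH were not clearly apart. Leaving out DR replicate 3, which holds the 2 counts of transcript39955, gave an adjusted p of 0.0893. It was also above 0.05 without RT replicate 1 (0.0893), 2 (0.0714) or 3 (0.104) and without SH replicate 1 (0.0696), 2 (0.0714) or 3 (0.0893).

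The log2 ratio of transcript134494 to transcript140100 averaged -1.34 ± 0.253 in RT, -1.59 ± 0.206 in DR and -1.94 ± 0.174 in SH (SD, n = 3 each, exact permutation p = 0.0393, adjusted 0.0393). RT libraries lay above SH libraries, and DR overlapped both. This was not past 0.05 without RT replicate 2 (0.0714) or 3 (0.104), DR replicate 2 (0.0643) or SH replicate 1 (0.0750), 2 (0.0714) or 3 (0.0804).

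**Figure D5:**
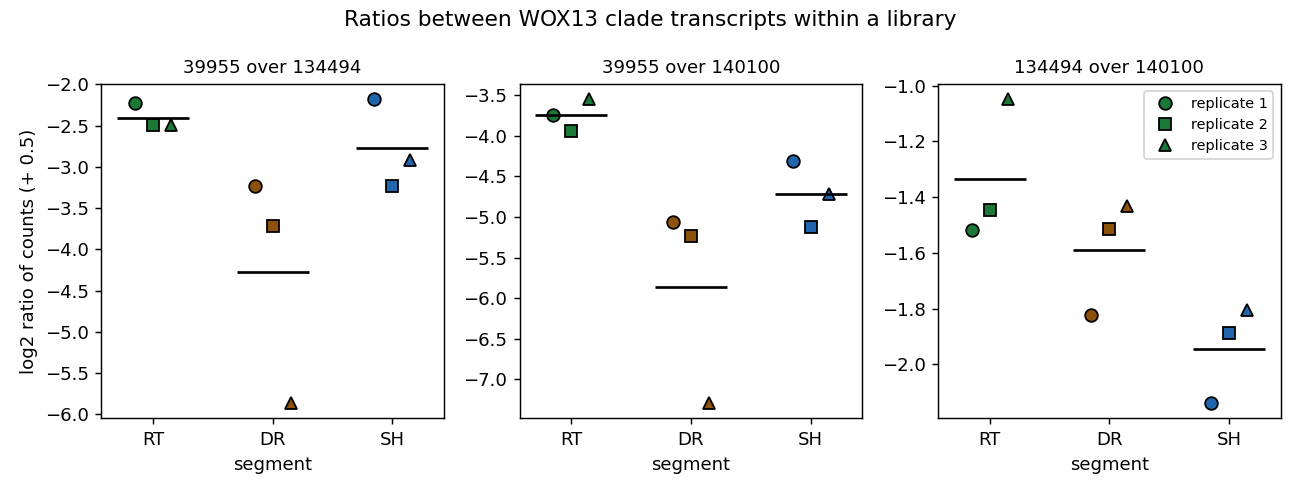
Log2 ratio of the counts of 2 WOX13 clade transcripts (y axis, 0.5 added to each count) in each library of RT, DR and SH. Lines are segment means and marker shapes the replicate number. The ratio of transcript39955 to transcript140100 is between -3.94 and -3.54 in RT and at or below -4.31 in the other libraries.

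The other WOX transcripts of the study were compared as the rest of the family. The WOX9 clade holds CriWOXA (transcript45206) and CriWOXB (transcript86378), orthologs of Arabidopsis WOX9, which acts in embryo development, and the WUS clade holds CriWUL (transcript86941). CriWOXA had 1.48, 4.10 and 6.95 CPM in the RT libraries, 0.147, 0.554 and 0.524 CPM in the DR libraries and 1.58, 2.71 and 2.02 CPM in the SH libraries. CriWOXB was instead highest in DR, at 4.61 ± 1.97 CPM in RT, 31.3 ± 12.6 CPM in DR and 1.08 ± 0.145 CPM in SH (SD, n = 3 each). CriWUL was at 3.08 ± 0.621 CPM in RT, 0.264 ± 0.124 CPM in DR and 0.132 ± 0.0820 CPM in SH (SD, n = 3 each). It had few counts outside RT, 5, 11 and 5 in the DR libraries and 1, 5 and 3 in the SH libraries.

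For RT over DR, 2 of these 3 were higher and 1 lower at an adjusted p of 0.05, with log2 fold changes of 3.34 for CriWOXA, -2.76 for CriWOXB and 3.51 for CriWUL. For RT over SH, 2 of 3 were higher, CriWOXB at 2.09 and CriWUL at 4.46, and CriWOXA was at 0.99 (adjusted p = 0.153). For DR over SH, CriWOXB was higher by 4.84 and CriWOXA lower, at -2.36, whereas CriWUL was at 0.95 (adjusted p = 0.168). Of all transcripts, 57.8%, 58.1% and 57.8% were called in either direction in these 3 comparisons, so the counts called say little. The values of the WOX13 clade transcripts lay between -0.72 and 2.27 over the 3 comparisons. Whether the clades differ in their response was not tested. Of the 3 other WOX transcripts, 1 had whole numbers in every library, whereas the other two had fractional values and their counts are in part estimates.

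The likeness of patterns was measured as the root mean square difference between profiles of log2(CPM + 0.5) over the 9 libraries, each centred on its own mean, among 23294 transcripts with a mean of at least 1 CPM and the members. The profiles of transcript134494 and transcript140100 differed by 0.27 per library on this log2 scale. From transcript39955 they differed by 0.49 and 0.46. Among all transcripts compared with transcript134494, transcript140100 ranked 332nd in likeness and transcript39955 ranked 4442nd, beside a median difference of 0.81. These ranks depended on the measure. transcript140100 ranked 414th with a pseudocount of 0.1 CPM, 251st with 1 CPM and 1681st with segment means. transcript39955 ranked 11387th, 1928th and 4831st under the same 3 settings, and at 0.1 CPM its difference of 0.86 was near the median of 0.87. CriWUL was at 0.71 from transcript39955, 0.81 from transcript134494 and 0.95 from transcript140100. CriWOXA was at 0.71, 0.90 and 0.91 from the same members in that order, and CriWOXB at 2.10, 1.76 and 1.80. Which of CriWOXA and CriWUL was nearer to transcript39955 depended on the measure. CriWOXA was at 0.48 against 0.61 for CriWUL with segment means, and at 0.56 against 0.52 with a pseudocount of 1 CPM. The libraries share their segment and depth, so these values are a description.

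The transcript nearest to transcript39955 was transcript23297, at 0.13, the nearest to transcript134494 was transcript134045, at 0.10, and the nearest to transcript140100 was transcript30439, at 0.07. transcript134045 had 146 ± 47.8 CPM in RT, 99.6 ± 9.46 CPM in DR and 72.1 ± 4.65 CPM in SH (SD, n = 3 each). No gene names are given for these transcripts. With a pseudocount of 0.1 or 1 CPM the nearest to transcript39955 was a different transcript each time, and with 1 CPM that of transcript140100 changed too. With the 3 segment means in place of the 9 libraries, the nearest was a different one for all 3 members.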

How the data were processed

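By the methods of the study and the labels, the authors checked reads with FastQC 0.11.2, trimmed them with Trimmomatic 0.32, assembled all libraries with Trinity, reduced the contigs by CD-HIT and Compacta clustering, counted reads with kallisto 0.44.0 and removed low transcripts with edgeR's filterByExpr. The deposited table holds estimated counts per transcript, although it is named for TPM. Its library totals, 20065742 to 27376654, are far above those of TPM, and most values are whole. They are not divided by library size or length, so the count test was used.

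Counts were rounded to whole numbers, scaled with TMM and fitted with edgeR 4.0.16 (R 4.3.3) by its quasi-likelihood test, with 1 coefficient per segment over the 9 libraries, a prior count of 0.125 and Benjamini-Hochberg adjustment over 28952 transcripts. Standard errors are the fold change over the root of F. Calls used an adjusted p of at most 0.05. The fit and the permutation test were tested on simulated data. No library was a duplicate of another (between replicates, chi-square averaged 19.1 or more per transcript). Alternatives were other scaling, filters, prior count and pseudocounts, unrounded counts, DESeq2 1.42.0, limma voom (3.58.1), 2 segments only, ranks, a replicate block, other thresholds and contrasts, and each library left out. The transcripts named are the members, the other WOX transcripts of the study and the nearest profile to each member. The closing section also names transcript140099 and transcript140101. Members and lists were chosen with earlier results of these data known, and the study had shown the members after filtering on an adjusted p.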

Additional observations from a re-analysis of the deposited data

How the results depend on the processing

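Under the alternatives, 154 of 171 fold changes kept their side of the threshold and 0 changed sign, and 61 of 93 p-values over segments or of ratios kept their side. With library size alone, the median of all transcripts moved to 0.54 for RT over SH and 0.33 for DR over SH, against 0.11 and -0.08 with TMM. There transcript134494 and transcript140100 passed for DR over SH (0.87 and 0.53, adjusted p = 0.0208 and 0.0139) and transcript140100 for RT over DR (0.40, adjusted p = 0.0452), but relative to the median transcript the DR over SH differences were 0.54 and 0.20, against 0.55 and 0.20 with TMM. With only DR and SH in the fit, transcript134494 passed for DR over SH (0.55, adjusted p = 0.0479).

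For transcript140100, the adjusted p over all segments was 0.0863 with DESeq2's scaling, 0.0851 with DESeq2 and 0.0566 with limma voom. With ranks, the adjusted p was 0.0750 for the ratio of transcript39955 to transcript134494 and 0.10 for transcript134494 to transcript140100. With a log2 fold change of 2 or more, members called for RT over SH numbered 0, in place of 3. Against the mean of DR and SH, 3 members were called in place of the 1 for RT over DR.

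Same-numbered libraries of different segments had correlated deviations of -0.382 to 0.108 over 9 pairs, and 1 of 9 libraries correlated best with its own number, so the numbers were not taken to pair the libraries. With a replicate block, transcript134494 was at 0.65 for RT over DR (adjusted p = 0.0498), transcript39955 at 1.57 for RT over SH (adjusted p = 0.0629), transcript140100 over all segments at an adjusted p of 0.0684, and the ratio of transcript39955 to transcript134494 at 0.0556. For the ratios the block allows fewer divisions of the libraries, so the smallest possible p is larger than without it. The block changed no other call.

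With each library left out, RT over DR ranged from 0.32 to 0.95 for transcript134494 and from 0.22 to 0.57 for transcript140100. RT over SH ranged from 1.25 to 1.71 for transcript39955 and from 0.38 to 0.69 for transcript140100, whose adjusted p over all segments ranged from 0.00563 to 0.118. The adjusted p of the ratios ranged from 0.0214 to 0.104 for transcript39955 to transcript134494, from 0.0107 to 0.0964 for transcript39955 to transcript140100, and from 0.0357 to 0.104 for transcript134494 to transcript140100. In the edgeR fits the spread of a transcript was estimated over all libraries kept, also where a segment kept 2. Depth limits transcript39955 most, with counts as low as 2.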

Other observations

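The second nearest profile to transcript140100 was that of transcript140099, which carries the adjacent number in the assembly and was picked out after its values were seen. It ranked 2nd of 23294, at 0.07 on the log2 scale, and 1st with a pseudocount of 1 CPM. Its level was 54.0 ± 14.7 CPM in RT, 41.5 ± 1.98 CPM in DR and 37.3 ± 2.76 CPM in SH (SD, n = 3 each). Its ratio to transcript140100 stayed between 2.25 and 2.59 in the 9 libraries, and all of its values were whole numbers. The transcript on the other side, transcript140101, was at 22.1 ± 3.74 CPM in RT, 36.8 ± 8.07 CPM in DR and 5.92 ± 1.18 CPM in SH, and ranked 16469th. Whether transcript140099 comes from the same gene as transcript140100 was not tested, since no sequences were used here.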
